A study of Mus musculus with 24 samples.

Results

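The genes of glycolysis and glycogen metabolism were examined in muscles with and without expression of the reprogramming factors in myofibers. They are 38 genes, chosen by gene symbol, of the 24537 genes in the count table, and all 38 passed the filter on low counts. Of these, 14 are isozymes or transporters classed here as muscle types (among them Hk2, Pfkm, Aldoa and Ldha). Their counterparts of many or other tissues are 9 (among them Hk1, Pfkl, Aldoc and Ldhb). These classes are labels, as the counterparts Ldhb and Slc16a1 were the larger part of their pairs in slow-twitch muscle. A further 5 are enzymes of the path with no muscle counterpart in the set, 3 are Pfkfb enzymes, 5 are other glycogen genes and 2 (Gpd1 and Ldhd) belong to side branches. RNA was sequenced from whole extensor digitorum longus (EDL) muscles, a fast-twitch muscle, and soleus (SOL) muscles, a slow-twitch muscle, in 24 libraries. Cre+ mice were Acta1-Cre+/4Fhet, in which Cre under a skeletal actin promoter cuts out a stop sequence before the Dox-dependent activator in myofibers, so that doxycycline (Dox) switches on the OSKM factors (c-Myc, Klf4, Sox2 and Oct-3/4). Cre- mice were Acta1-Cre-/4Fhet, which carry the same cassette and also received Dox. All mice were 2 months old. Their drinking water held Dox (1 mg/ml), and muscles were taken after 2.5 days, 5.5 days and 8.5 days of it, with 2 libraries, described as biologically independent samples, for each muscle, genotype and time point.

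Glycolysis splits glucose into pyruvate in the cytosol, and in muscle much of that glucose comes from glycogen stored in the fiber itself. Most steps are run by several isozymes encoded by separate genes, and adult myofibers rely on muscle types such as Pfkm, Eno3 and Pgam2, while most other tissues use the counterparts. Fast fibers are the more glycolytic, and release lactate, whereas slow fibers burn fat and take up lactate. Glycogen is broken down by the phosphorylase Pygm, which phosphorylase kinase, an enzyme of the subunits Phka1, Phkb, Phkg1 and calmodulin, switches on when calcium rises.

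Each library held between 36088781 and 54679082 counts, and the lowest count of any of the 38 genes in a library was 8, for Aldoc. The 4 OSKM genes were called higher in Cre+ than in Cre- EDL muscles at 2.5 and 8.5 days, and Pou5f1 and Sox2 were in SOL muscles. Their summed level in Cre+ EDL replicates 1 and 2 was 74.5 and 260.5 FPKM at 2.5 days, and 254.4 and 204.7 at 8.5 days. Replicate 1 of 2.5 days was thus well below the other Cre+ EDL libraries of these days. In the 4 Cre- EDL libraries the sum was between 9.49 and 20.5 FPKM. In SOL it was 31.3 to 57.8 in Cre+ and 13.6 to 25.2 in Cre- libraries. FPKM is the count scaled to exon length and to the total of the library. Fold changes of single genes are from edgeR after a further scaling between libraries (TMM), so they differ from ratios of the FPKM values. In EDL at 2.5 days the TMM factors were 1.09 and 1.16 in Cre+ and 0.910 and 0.880 in Cre- libraries. Rises there are therefore smaller, and falls larger, after TMM than in FPKM. Between the muscles of Cre- mice, all 8 fast fiber markers were higher in EDL and all 8 slow fiber markers higher in SOL. As whole muscle was used, fewer cells of a type and less RNA per cell cannot be told apart.

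In Cre- muscles, most of the genes had higher RNA levels in EDL than in SOL. Of the 38 genes, 22 were called higher in EDL, 4 lower (Hk1, Ldhb, Slc16a1 and Gbe1) and 12 neither, where a call is an adjusted p under 0.05 with an absolute log2 fold change over 0.5. Among all 15478 genes tested, 11.6% were called higher in EDL and 13.3% lower. The median log2 fold change (EDL over SOL, averaged over the 3 days) was 1.07 for the 38 genes and -0.02 for all genes. All 5 enzymes without a counterpart in the set and all 3 Pfkfb enzymes were higher in EDL, as were 11 of the 14 muscle isozymes and 0 of the 9 counterparts.

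Per length, Aldoa, the muscle aldolase, had the highest level of the set in both muscles. It was 7306 to 11970 FPKM (median 10380) in the 6 Cre- EDL libraries and 2798 to 3800 (median 3172) in the 6 Cre- SOL libraries, which did not overlap. Eno3, the muscle enolase, came next in EDL (3960 to 5322 FPKM, median 4340), followed by Gapdh (2267 to 3154), Pfkm (1437 to 2629), Pgam2 (1650 to 2785) and Pygm (1234 to 2390), whose ranges overlapped one another. In SOL, the heart-type lactate dehydrogenase Ldhb came after Aldoa, Gapdh and Eno3 by mean level, with a range that overlapped that of Eno3, at 864.5 to 1393 FPKM (median 1110), against 108.4 to 180.5 (median 151.6) in EDL. At the other end of the order, Aldoc, the brain aldolase, was lowest in both muscles, at 0.194 to 0.332 FPKM in EDL and 0.0764 to 0.261 in SOL.

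The largest differences between the muscles were in Slc16a3, the lactate exporter MCT4 (log2 fold change 3.61 ± 0.21 SE, adjusted p = 6.78e-10), Gpd1, the cytosolic glycerol-3-phosphate dehydrogenase (3.15 ± 0.14, 5.50e-11), and Ldhb (-2.87 ± 0.10, 4.78e-12). The phosphorylase kinase subunits Phkg1 (2.64 ± 0.18), Phka1 (2.48 ± 0.11) and Phkb (2.29 ± 0.08) were all higher in EDL, as was Fbp2, the muscle fructose-bisphosphatase (2.03 ± 0.19). Hk2, the insulin-responsive hexokinase, and Slc2a4, the insulin-responsive glucose transporter GLUT4, were called in neither direction, at 0.03 ± 0.10 and 0.20 ± 0.10. Adipocyte markers were lower in EDL than in SOL (6 of 6), satellite cell markers were lower (4 of 5), and Schwann cell and erythroid markers were higher (5 of 6 each), and their part in these differences was not tested. In the 5.5-day libraries alone, 21 of the 38 genes were called higher in EDL and 4 lower, beside 9.60% and 10.2% of all genes.

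With OSKM, most glycolytic and glycogen genes fell in EDL muscles at 2.5 days and fewer at 8.5 days, while a few isozymes of other tissues rose. At 2.5 days, 22 of the 38 genes fell, 3 rose (Aldoc, Fbp2 and Pfkl) and 13 were not called, beside 10.2% of all 15372 tested genes called lower and 13.8% called higher. At 8.5 days, 13 fell, 5 rose (Aldoc, Hk1, Pfkl, Gpi1 and Pgam1) and 20 were not called, beside 6.50% lower and 7.63% higher among all genes. The median log2 fold change of the 38 genes was -0.69 at 2.5 days and -0.37 at 8.5 days, where that of all genes was -0.05 and -0.02. Of the 14 muscle isozymes, 12 fell and 1 rose at 2.5 days, and 6 fell and 0 rose at 8.5 days. Of the 9 counterparts, 2 rose and 1 fell at 2.5 days, and 4 rose and 0 fell at 8.5 days.

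The same 13 genes were called in the same direction at both days, 11 lower and 2 higher, with 12 called at 2.5 days alone and 5 at 8.5 days alone. The change at 8.5 days minus that at 2.5 days was called for 0 of the 38 genes by edgeR, beside 0.00% of all genes, with 5 of the 38 at an unadjusted p under 0.05, and for 3 of the 38 without Cre+ replicate 1 of 2.5 days. The 38 genes together took 5.74% and 6.78% of all counts in the Cre- EDL libraries of 2.5 days and 4.50% and 3.55% in the Cre+ ones. At 8.5 days the shares were 4.66% and 5.93% against 3.98% and 4.40%, so the groups did not overlap at either day. By TMM-scaled counts, both Cre+ libraries were above both Cre- libraries for 6 of the 38 genes at 2.5 days (30.7% of all genes) and for the same 6 at 8.5 days (26.6%): Hk1, Gpi1, Pfkl, Aldoc, Pgam1 and Fbp2. Both were below for 28 genes at 2.5 days (34.5%) and 20 at 8.5 days (26.8%). An unadjusted p under 0.05 was reached by 30 and 22 of the 38 genes, and by 39% and 29.8% of all genes. For the change between the days the share of all genes at such a p was not computed. Scaling to library totals without TMM moved the median of all genes to 0.28 at 2.5 days and 0.16 at 8.5 days. That of the 38 genes was then -0.36 and -0.19. The calls among the 38 were 6 higher and 13 lower at 2.5 days and 6 higher and 10 lower at 8.5 days. No called gene changed direction. The share of all genes called at this scaling was not computed, so these counts have no background. Without Cre+ replicate 2 the falls at 2.5 days numbered 11, and without Cre- replicate 2 they numbered 14. Without Cre+ replicate 1, 0 rises and 2 falls (Gpd1 and Phkb) remained at 8.5 days, and the rises numbered 1 without Cre- replicate 1 and 2 without Cre+ replicate 2.

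**Figure D1:**
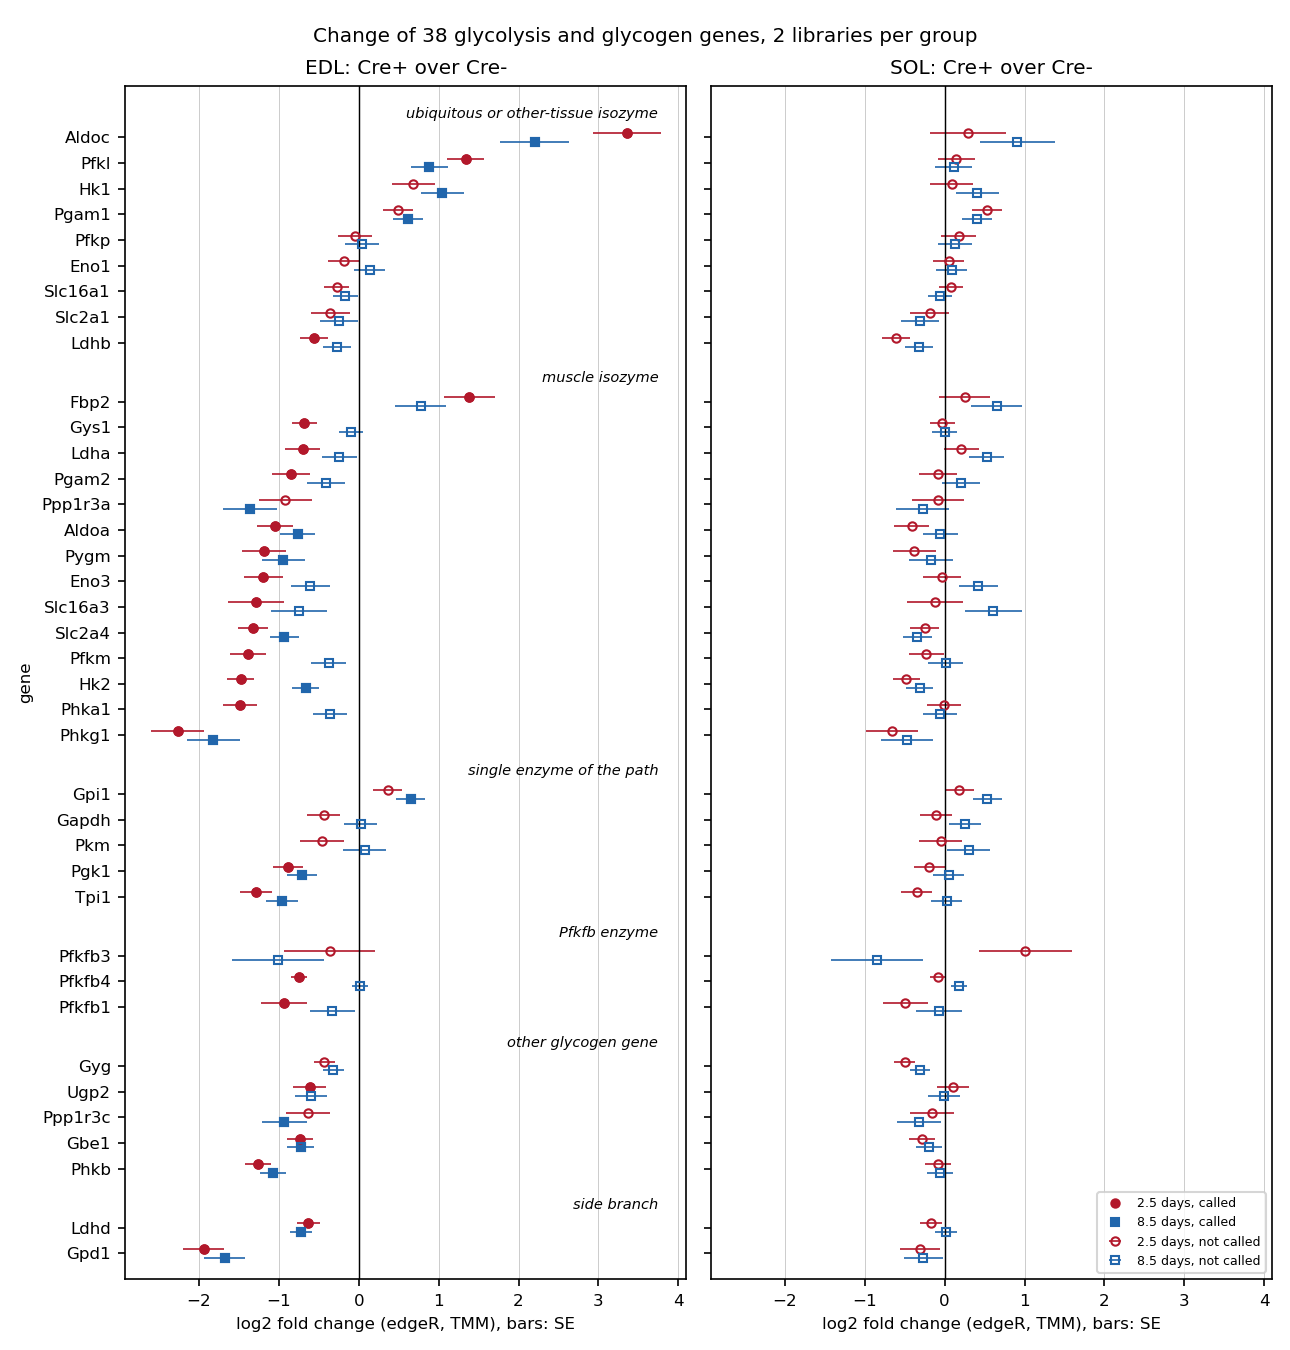
Each point is the log2 fold change of a gene, Cre+ over Cre-, in EDL (left) and SOL muscles (right) at 2.5 days (circles) and 8.5 days (squares). Bars are the SE, derived from the edgeR fold change and F statistic, and filled symbols are calls. In EDL muscles Aldoc lies far to the right (3.35 at 2.5 days) and Phkg1 farthest to the left (-2.27), while no symbol is filled in SOL muscles.

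At the entry of glucose, the muscle transporter and hexokinase fell at both days and the ubiquitous hexokinase rose at 8.5 days. Slc2a4 was 298.9 and 283.2 FPKM in the Cre- EDL libraries of 2.5 days and 161.2 and 130.0 in the Cre+ ones, and 224.9 and 235.8 against 114.8 and 156.9 at 8.5 days. The Cre+ libraries lay below the Cre- ones at both days, and the log2 fold change was -1.32 ± 0.18 (adjusted p = 0.000289) and -0.93 ± 0.18 (0.00472). Slc2a1, the ubiquitous transporter GLUT1, was between 5.04 and 7.30 FPKM in all 8 libraries and was not called. Hk2 stood at 91.2 and 90.0 FPKM in Cre- and at 39.8 and 42.0 in Cre+ libraries at 2.5 days, and at 52.9 and 74.4 against 46.4 and 44.6 at 8.5 days. Its groups were apart at both days, with a 2.79-fold fall at 2.5 days (-1.48 ± 0.17, adjusted p = 8.87e-05) and a 1.59-fold fall at 8.5 days (-0.67 ± 0.17, 0.0171). Hk1, the mitochondria-bound hexokinase of most tissues, was 3.40 and 3.73 FPKM in Cre- and 7.61 and 6.77 in Cre+ libraries at 2.5 days, and 2.83 and 4.46 against 10.97 and 6.28 at 8.5 days. All Cre+ libraries of a day were above its Cre- libraries, and the rise was called at 8.5 days (1.05 ± 0.27, adjusted p = 0.0205) but not at 2.5 days (0.68 ± 0.27, 0.0780). Hk1os overlaps Hk1 on the opposite strand, as Pitrm1 does Pfkp, Spsb2 does Tpi1, Vps54 does Ugp2 and Sumf2 does Phkg1, and the strand setting of the counting is not given in the sources used here, so reads of such neighbours may be mixed.

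At the 6-phosphofructokinase step, the main control point of glycolysis, the muscle type fell at 2.5 days and the liver type rose at both days. Pfkm was 2362 and 2511 FPKM in Cre- and 1377 and 960.7 in Cre+ EDL libraries at 2.5 days, and 1437 and 2069 against 1469 and 1592 at 8.5 days. The groups were apart at 2.5 days (-1.38 ± 0.22, adjusted p = 0.000752) and overlapped at 8.5 days (-0.38 ± 0.22, 0.283). Pfkl, the liver type, was 3.74 and 4.32 FPKM in Cre- and 9.49 and 16.4 in Cre+ libraries at 2.5 days, and 3.02 and 4.21 against 7.70 and 7.48 at 8.5 days. It rose at both days, by 1.34 ± 0.23 (0.00114) and 0.89 ± 0.23 (0.0216), yet stayed a small part of the total, at 0.684% and 1.68% of the Pfkm and Pfkl FPKM at 2.5 days, against 0.158% and 0.172% in Cre- libraries. Pfkp, the platelet type, was 1.67 to 3.60 FPKM in the 8 libraries and was not called (-0.04 ± 0.22 and 0.04 ± 0.21). Of the Pfkfb enzymes, which set the level of the activator fructose 2,6-bisphosphate, Pfkfb4 (-0.75 ± 0.10, 0.000202) and Pfkfb1 (-0.94 ± 0.28, 0.0271) fell at 2.5 days and neither was called at 8.5 days. Pfkfb3 varied from 8.94 to 78.1 FPKM among the 8 libraries, with overlapping groups, and was not called.

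Fbp2, which runs the reverse step, was the muscle isozyme that rose. It was 40.4 and 34.3 FPKM in Cre- and 124.1 and 120.8 in Cre+ EDL libraries at 2.5 days, and 37.9 and 80.9 against 128.9 and 102.8 at 8.5 days. The Cre+ libraries were above the Cre- ones at both days, with a 2.61-fold rise at 2.5 days (1.39 ± 0.32, adjusted p = 0.00652, or 0.0572 without Cre- replicate 2) and 0.77 ± 0.32 at 8.5 days (0.119).

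Aldolase showed the widest split within an isozyme pair. Aldoc was 0.284 and 0.332 FPKM in Cre- EDL libraries of 2.5 days, from 34 and 41 counts, and 3.46 and 4.51 in Cre+ libraries, from 449 and 542 counts. At 8.5 days it was 0.194 and 0.294 FPKM against 1.62 and 0.964. After TMM, by edgeR, the rise was 10.2-fold at 2.5 days (3.35 ± 0.42, adjusted p = 0.000160) and 4.60-fold at 8.5 days (2.20 ± 0.43, 0.00446, not called without Cre+ replicate 1). Aldoc stayed at a low level beside Aldoa. Aldoa was 9570 and 10770 FPKM in Cre- and 6751 and 5594 in Cre+ libraries at 2.5 days, and 7306 and 9991 against 5297 and 6229 at 8.5 days. Its groups were apart at both days, with log2 fold changes of -1.05 ± 0.22 (0.00395) and -0.76 ± 0.22 (0.0340). Both Aldoa calls were lost in some runs that left out a library. The call at 8.5 days was also lost in some runs that kept every library.

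In the lower part of the path, Tpi1 and Pgk1 fell while Gapdh and Pkm were not called. Tpi1, triosephosphate isomerase, was 1830 and 2193 FPKM in Cre- and 1172 and 893.2 in Cre+ libraries at 2.5 days, and 1748 and 1811 against 929.4 and 1128 at 8.5 days. It fell 2.44-fold at 2.5 days and 1.95-fold at 8.5 days (adjusted p = 0.000601 and 0.00636), with the groups apart at both. Pgk1, phosphoglycerate kinase, fell at both days (-0.89 ± 0.19 and -0.71 ± 0.19, 0.00440 and 0.0245). Gapdh had log2 fold changes of -0.44 ± 0.20 and 0.02 ± 0.20, and Pkm, pyruvate kinase with both splice forms in a single count, of -0.46 ± 0.27 and 0.08 ± 0.27. Gpi1, glucose-6-phosphate isomerase, went the other way, at 333.4 and 397.4 FPKM in Cre- and 613.1 and 569.6 in Cre+ libraries at 2.5 days, and 244.9 and 329.7 against 543.9 and 479.7 at 8.5 days. All Cre+ libraries were above all Cre- libraries of their day, and the rise was called at 8.5 days (0.65 ± 0.18, adjusted p = 0.0294) but not at 2.5 days (0.36 ± 0.18, 0.157).

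The muscle mutase and enolase fell at 2.5 days. Pgam2 was 1914 and 2785 FPKM in Cre- and 1823 and 1459 in Cre+ libraries, and Eno3 was 4354 and 5322 against 3026 and 2271. Their log2 fold changes were -0.85 ± 0.24 (adjusted p = 0.0194) and -1.19 ± 0.25 (0.00331) at 2.5 days, and -0.41 ± 0.24 and -0.61 ± 0.24 at 8.5 days, where neither was called. Pgam1, the mutase of most tissues, was 2.53 and 2.89 FPKM in Cre- and 4.78 and 4.65 in Cre+ libraries at 8.5 days and rose by 0.62 ± 0.19 (0.0450). At 2.5 days it was 3.03 and 2.74 against 4.03 and 6.24 FPKM (0.50 ± 0.19, 0.0693). Eno1, which shares its exons with the overlapping entry Eno1b, was 30.05 to 48.9 FPKM in the 8 libraries, with overlapping groups, and was not called at either day. Gapdh, Ldha and Pgam1 have processed copies elsewhere in the genome, and since reads that align to several places were not counted, the levels of such genes are uncertain.

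For lactate, both dehydrogenases were called lower in EDL at 2.5 days, though both calls were lost in some alternative runs, and their ratio hardly moved. Ldha, the muscle type, was 1657 and 2033 FPKM in Cre- and 1537 and 1310 in Cre+ libraries (-0.70 ± 0.22, adjusted p = 0.0296), and Ldhb was 120.9 and 108.4 against 97.6 and 97.2 (-0.56 ± 0.17, 0.0297). Neither was called at 8.5 days. Slc16a3 was 157.9 and 175.1 FPKM in Cre- and 107.6 and 62.8 in Cre+ libraries at 2.5 days and fell (-1.29 ± 0.35, 0.0167), and at 8.5 days it was 132.0 and 152.4 against 86.8 and 103.9 (-0.75 ± 0.35, 0.171). Slc16a1, the lactate transporter MCT1 of oxidative tissue, was 12 to 16.6 FPKM in all 8 libraries and was not called. Ldhd, a mitochondrial D-lactate dehydrogenase, fell at both days (-0.63 ± 0.14 and -0.72 ± 0.14, 0.00530 and 0.00457).

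Gpd1, which draws dihydroxyacetone phosphate off to glycerol 3-phosphate, had one of the widest gaps of the set. It was 345.7 and 446.1 FPKM in Cre- and 152.4 and 106.6 in Cre+ EDL libraries at 2.5 days, and 278.8 and 374.0 against 101.9 and 128.1 at 8.5 days. Every Cre+ library was far below every Cre- library, and the fall was 3.83-fold (-1.94 ± 0.26, adjusted p = 0.000209) and 3.20-fold (-1.68 ± 0.25, 0.00102).

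Among glycogen genes, Phkg1 had the largest fall at both days. It encodes the catalytic subunit, in muscle, of the kinase that activates phosphorylase, and was 303.8 and 326.9 FPKM in Cre- and 111.6 and 51.4 in Cre+ EDL libraries at 2.5 days, and 214.8 and 249.7 against 62.1 and 86.1 at 8.5 days. The groups were wide apart, and the fall was 4.81-fold (-2.27 ± 0.33, adjusted p = 0.000409) and 3.53-fold (-1.82 ± 0.33, 0.00304, or 0.0545 without Cre+ replicate 1). Phkb, a regulatory subunit, was 80.5 and 76.8 FPKM against 43.7 and 38.6 at 2.5 days and 79.4 and 59.4 against 34.0 and 40.6 at 8.5 days, a fall at both days (-1.26 ± 0.16, 0.000176, and -1.07 ± 0.16, 0.000998). Phka1, the regulatory subunit of muscle, was 156.5 and 160.2 FPKM in Cre- and 87.7 and 53.4 in Cre+ libraries at 2.5 days (-1.49 ± 0.22, 0.000393), but 99.8 and 112.7 against 96.2 and 91.6 at 8.5 days (-0.36 ± 0.21, 0.290). Pygm itself was 1810 and 2390 FPKM against 1335 and 987.9 at 2.5 days and 1234 and 2253 against 1055 and 1007 at 8.5 days. It fell at both days (-1.18 ± 0.27 and -0.94 ± 0.27, 0.00676 and 0.0341).

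Of the genes of glycogen synthesis and its control, Gbe1 fell at both days, and 2 others were called lower at each day. Gys1, glycogen synthase of muscle, fell at 2.5 days (-0.68 ± 0.16, adjusted p = 0.00642) and was at -0.10 ± 0.16 at 8.5 days. Gbe1, the branching enzyme, fell from 30.8 and 27.5 to 21.5 and 22.6 FPKM at 2.5 days and from 30.2 and 21.4 to 15.7 and 19.4 at 8.5 days (-0.73 ± 0.16 at each, 0.00542 and 0.0103). Ugp2, which makes UDP-glucose, fell at 2.5 days (-0.61 ± 0.20, 0.0380) and had nearly the same value at 8.5 days without passing the test (-0.60 ± 0.20, 0.0644). Gyg, the glycogenin that primes the chain, had -0.43 ± 0.13 and -0.32 ± 0.13 and was not called. Ppp1r3a and Ppp1r3c, which bring protein phosphatase 1 to glycogen, were called lower at 8.5 days (-1.36 ± 0.33 and -0.93 ± 0.28, 0.0155 and 0.0383) and stood at -0.92 ± 0.33 and -0.64 ± 0.28 at 2.5 days (0.0550 and 0.105).

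**Figure D2:**
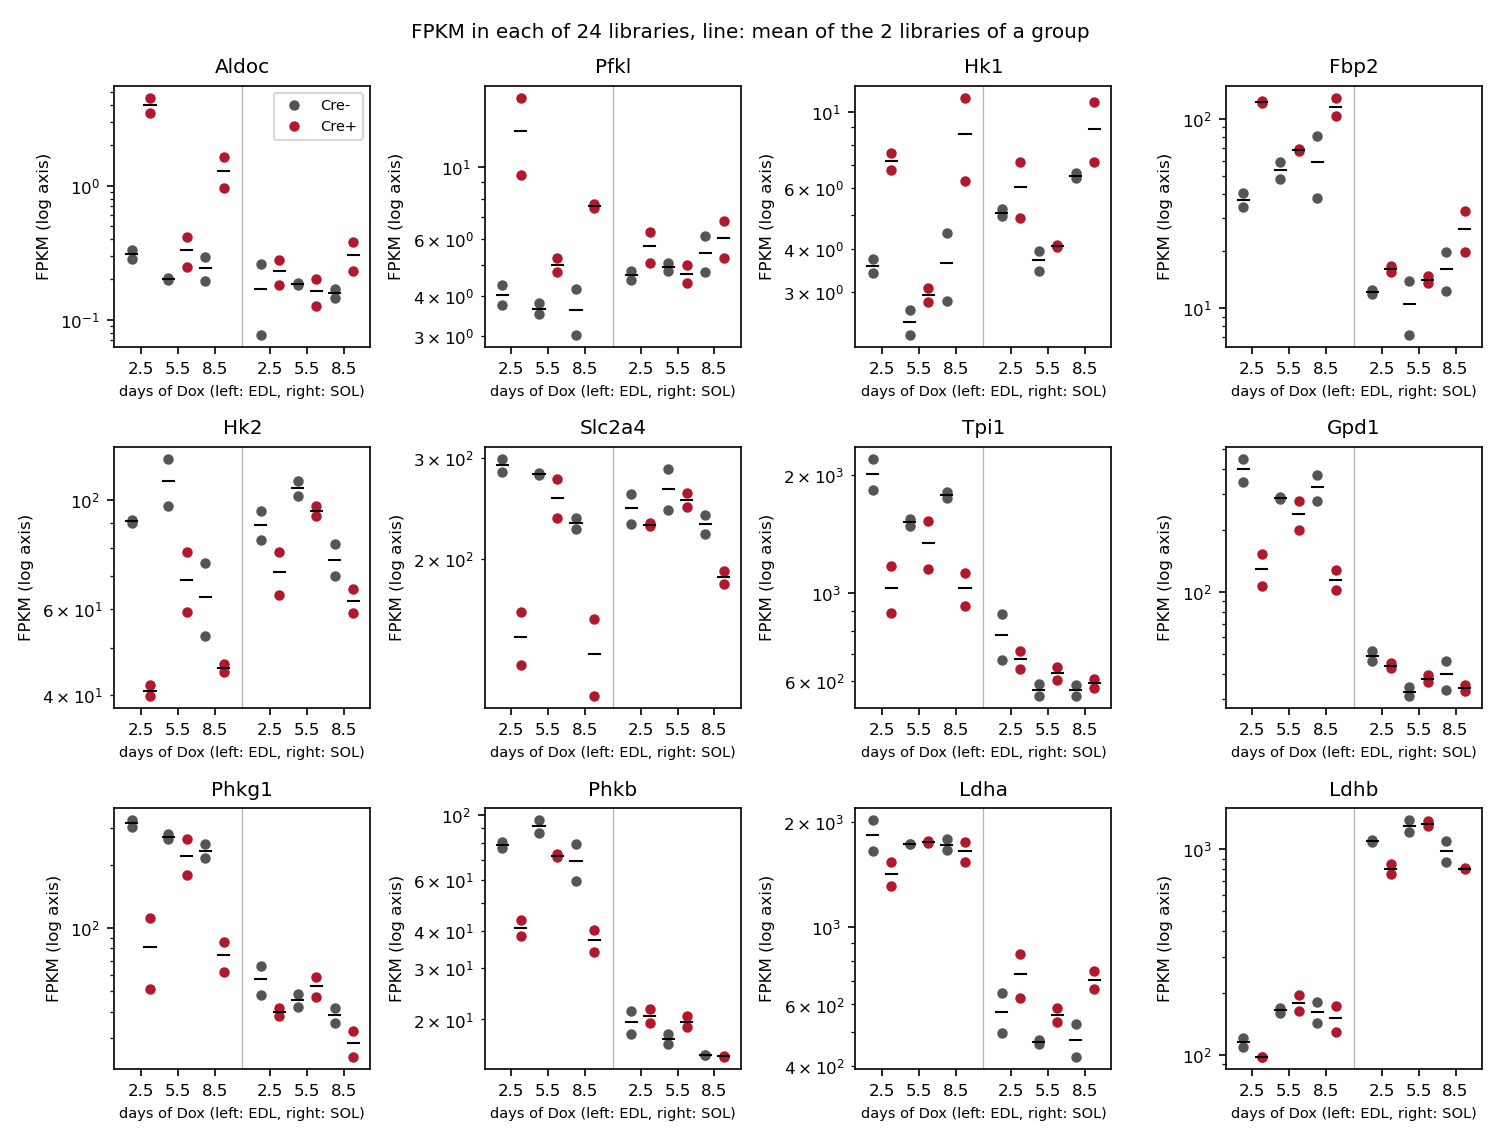
FPKM on a log axis in each of the 24 libraries for 12 genes, by day of Dox, with EDL muscles left and SOL muscles right of the grey line, Cre- in grey, Cre+ in red and a bar for the mean of the 2 libraries of a group. In EDL muscles at 2.5 and 8.5 days Aldoc, Pfkl, Hk1 and Fbp2 lie above their controls and Hk2, Slc2a4, Tpi1, Gpd1, Phkg1 and Phkb below, while the Ldha and Ldhb groups lie close together.

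Promoters of 4 called genes are printed to show what stands before their starts: Aldoc and Phkg1 for the size of their change, and Fbp2 and Ppp1r3c because their windows hold the E-box CACGTG. Each line gives the 250 bases before the transcript start nearest to the counted one, from RefSeq on GRCm38, 5′ to 3′ on the strand of the gene, with CACGTG in capitals. CACGTG is the E-box letters that Myc and Max can bind, reads the same on both strands, and contains ACGTG, the core of the hypoxia response element. Aldoc (chr11:78323948-78324197, plus strand) rose most, Fbp2 (chr13:62858401-62858650, minus strand) was the muscle isozyme that rose, Ppp1r3c (chr19:36736605-36736854, minus strand) fell at 8.5 days and Phkg1 (chr5:129879089-129879338, minus strand) fell most.
Aldoc: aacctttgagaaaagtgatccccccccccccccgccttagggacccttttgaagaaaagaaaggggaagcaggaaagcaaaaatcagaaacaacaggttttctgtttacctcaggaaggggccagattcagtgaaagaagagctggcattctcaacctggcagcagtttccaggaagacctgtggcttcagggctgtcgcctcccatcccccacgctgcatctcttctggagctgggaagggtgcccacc
Fbp2: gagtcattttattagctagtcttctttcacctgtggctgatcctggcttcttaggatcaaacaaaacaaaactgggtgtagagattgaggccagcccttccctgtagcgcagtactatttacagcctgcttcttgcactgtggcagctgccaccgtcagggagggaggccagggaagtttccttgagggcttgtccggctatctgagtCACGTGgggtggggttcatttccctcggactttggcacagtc
Ppp1r3c: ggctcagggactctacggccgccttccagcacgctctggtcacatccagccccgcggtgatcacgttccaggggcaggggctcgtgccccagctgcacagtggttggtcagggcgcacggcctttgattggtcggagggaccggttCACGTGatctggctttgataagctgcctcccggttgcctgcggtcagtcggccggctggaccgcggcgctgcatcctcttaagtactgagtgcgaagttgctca
Phkg1: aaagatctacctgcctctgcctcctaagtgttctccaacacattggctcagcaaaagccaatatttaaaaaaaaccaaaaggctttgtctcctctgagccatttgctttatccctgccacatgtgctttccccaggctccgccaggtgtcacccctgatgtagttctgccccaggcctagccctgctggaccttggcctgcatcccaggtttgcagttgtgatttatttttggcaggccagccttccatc

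The capitals stand 42 bases before the start of Fbp2 and 104 bases before that of Ppp1r3c, counted to the first base of the motif, and the windows of Aldoc and Phkg1 hold none. Promoters reaching from 250 bases before to 50 after the start were found for 36 of the 38 genes, and CACGTG was in at least 1 promoter of 8 of them (22.2%): Fbp2, Gyg, Ldha, Ldhd, Pfkfb3, Pfkm, Ppp1r3c and Slc16a1. It was in 11.2% of the 11761 tested genes with a promoter and in 7.15% of all 32851 promoters. In EDL at 2.5 days 1 of these 8 genes rose, 3 fell and 4 were not called, and at 8.5 days 0 rose, 2 fell and 6 were not called. Of all genes tested, 13.8% were called higher and 10.2% lower at 2.5 days, and 7.63% and 6.50% at 8.5 days. ACGTG on either strand was in promoters of 20 of the 36 genes (55.6%) and of 27.9% of the tested genes. Of those 20, 2 rose and 9 fell at 2.5 days, and of the other 16, 1 rose and 11 fell. At 8.5 days 3 rose and 6 fell of the 20, and 2 rose and 5 fell of the 16.

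Isozyme ratios were formed within each library, which removes the scaling between libraries. In EDL muscles 8 of the 9 ratios of muscle type over counterpart were lower with OSKM, each with all 4 Cre+ libraries below the Cre- libraries of their day, though none passed the test after adjustment. The mean log2 difference of both days was -3.69 for Aldoa over Aldoc (-4.41 at 2.5 days and -2.96 at 8.5 days), -1.99 for Pfkm over Pfkl and -1.92 for Hk2 over Hk1. It was -1.17 for Pgam2 over Pgam1, -0.90 for Pfkm over Pfkp, -0.89 for Eno3 over Eno1, -0.86 for Slc2a4 over Slc2a1 and -0.84 for Slc16a3 over Slc16a1. The exact two-sided permutation p of each was 0.0556, the smallest that 36 arrangements within days can give, and 0.1 after adjustment over 18 tests. The ratios over Pfkl and Pfkp share Pfkm, so they are not separate observations. Pfkm over Pfkp differed by -1.37 at 2.5 days and -0.44 at 8.5 days. At 8.5 days it was 742.7 and 613.8 in Cre- and 407.9 and 609.2 in Cre+ libraries, so its groups were barely apart. Hk2 over Hk1 was 26.8 and 24.2 in Cre- and 5.23 and 6.21 in Cre+ libraries at 2.5 days, and 18.7 and 16.7 against 4.23 and 7.10 at 8.5 days. Hk1 thus made up 16.1% and 13.9% of the summed FPKM of both hexokinases in Cre+ libraries at 2.5 days, against 3.60% and 3.98% in Cre- libraries.

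Ldha over Ldhb was the exception in EDL, with 13.7 and 18.8 in Cre- and 15.8 and 13.5 in Cre+ libraries at 2.5 days, and a mean log2 difference of -0.05 (exact permutation p = 0.778). In SOL muscles this was the ratio, of the 9, with the largest difference toward the isozyme classed as muscle type. It was 0.456 and 0.579 in Cre- and 0.986 and 0.824 in Cre+ libraries at 2.5 days, and 0.610 and 0.384 against 0.934 and 0.819 at 8.5 days. All 4 Cre+ libraries were above the Cre- libraries of their day, with a mean log2 difference of 0.83 (exact permutation p = 0.0556, the smallest possible, 0.1 adjusted). Neither gene was called alone in SOL, where Ldha had 0.21 ± 0.22 and 0.53 ± 0.22 and Ldhb -0.61 ± 0.17 and -0.32 ± 0.17. Pgam2 over Pgam1 also lay apart in SOL (-0.41, p = 0.0556 by exact permutation), and the other 7 ratios did not, with p from 0.111 to 0.667.

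Between the muscles of Cre- mice, 7 of the 9 ratios had EDL libraries above all SOL libraries of their day (exact permutation p = 0.00926, the smallest of 216 arrangements, 0.0119 adjusted over 9 tests). With libraries exchanged only within EDL and SOL of the same number, the exact permutation p of these 7 was 0.0313, the smallest of 64 arrangements (0.0402 adjusted over 9 tests). Slc16a3 over Slc16a1 was 28.2-fold and Ldha over Ldhb 27.2-fold higher in EDL, while Eno3 over Eno1 was 4.38-fold and Hk2 over Hk1 1.51-fold higher. In Cre- SOL libraries Ldhb was 62.1% to 75.1%, and Slc16a1 62.0% to 87.0%, of the summed FPKM of its pair. Aldoa over Aldoc was 2.03-fold higher with overlapping libraries (exact permutation p = 0.0278, but 0.0625 within same-numbered pairs and 0.0556 without Cre- EDL replicate 1 or Cre- SOL replicate 2 of 2.5 days), and Slc2a4 over Slc2a1 did not differ by this test (1.13-fold, 0.222).

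**Figure D3:**
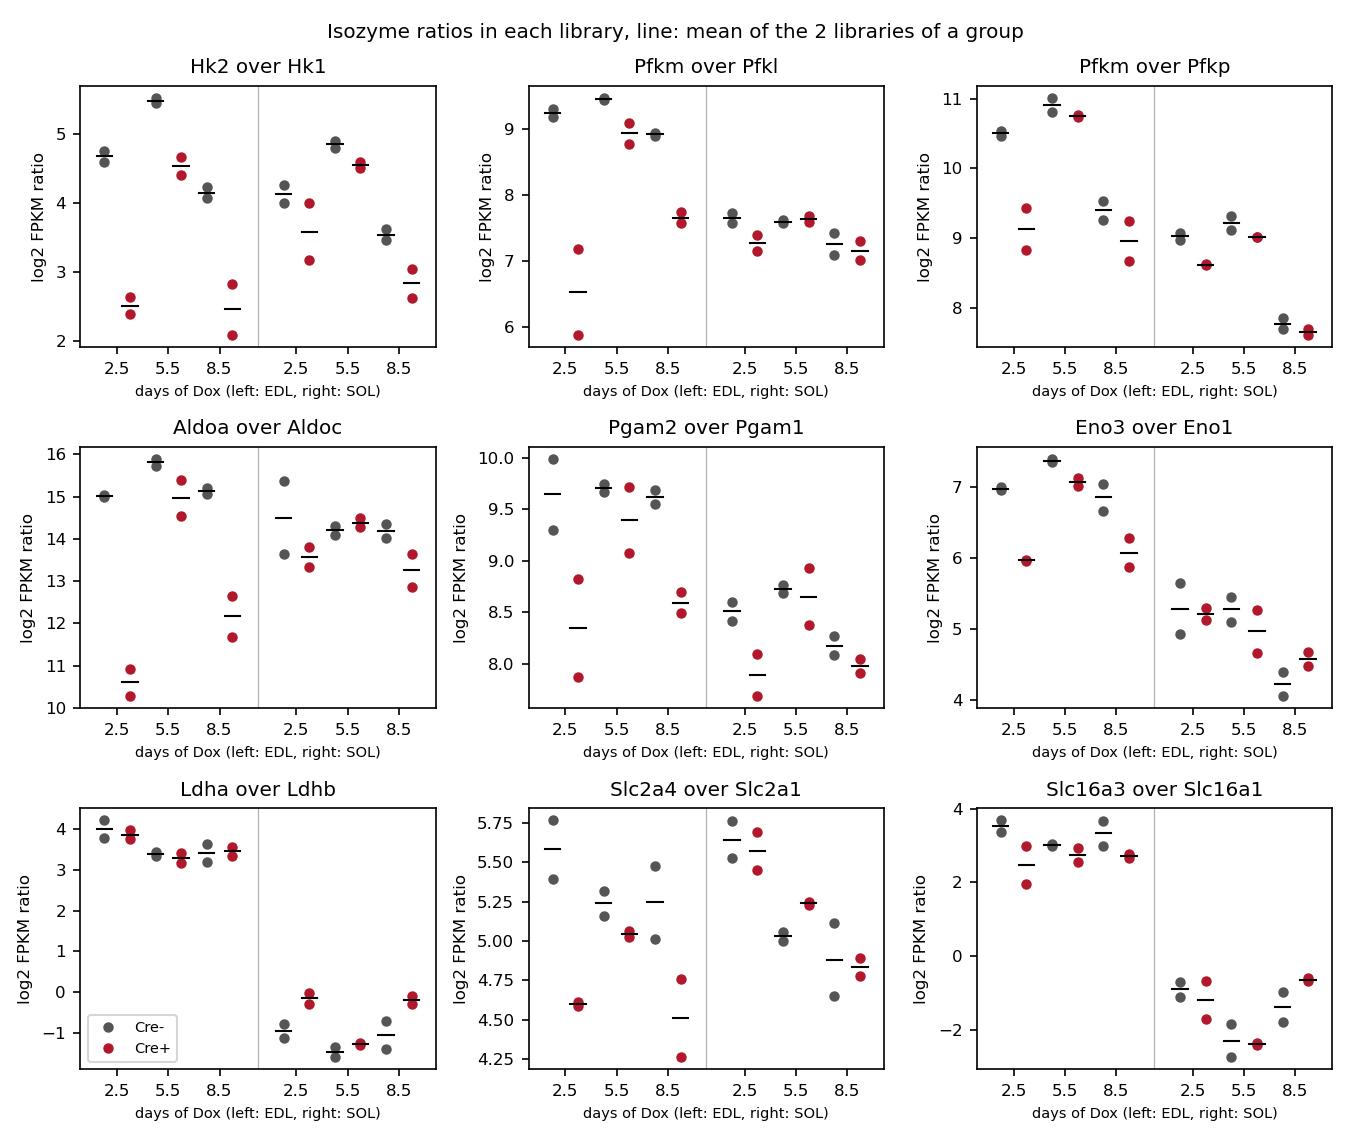
Log2 FPKM ratio of the muscle isozyme over its counterpart for 9 pairs in each of the 24 libraries, by day of Dox, with EDL left and SOL right of the grey line, Cre- in grey, Cre+ in red and a bar for the mean of the 2 libraries of a group. Cre+ EDL libraries of 2.5 and 8.5 days lie below their controls except for Ldha over Ldhb, which in SOL lies higher in Cre+ than in Cre- at both of these days.

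In SOL muscles 0 of the 38 genes were called by edgeR at 2.5 days, with 4 at an unadjusted p under 0.05, and 0 at 8.5 days, with 3. Of all tested genes 13.4% and 6.60% had such a p, and 0.345% were called higher and 0.0390% lower at 2.5 days, and 0.332% and 0.299% at 8.5 days. DESeq2 on the same libraries called 2 of the 38 lower at 2.5 days and 0 at 8.5 days, and on the 4 libraries of a comparison it called 1 higher and 4 lower at 2.5 days and 1 higher at 8.5 days. The median log2 fold change was -0.08 at 2.5 days and 0.01 at 8.5 days, and the 38 genes took between 2.30% and 2.72% of all counts in the Cre- libraries of these days and between 2.34% and 2.66% in the Cre+ ones. The lowest adjusted p was that of Gyg at 2.5 days (-0.50 ± 0.13, 0.129) and Gpi1 at 8.5 days (0.53 ± 0.18, 0.458). Gyg was 399.1 and 375.5 FPKM in Cre- and 296.8 and 312.3 in Cre+ libraries at 2.5 days. Gpi1 was 198.1 and 207.0 against 327.8 and 274.2 at 8.5 days, and both genes had groups that did not overlap. The TMM-scaled counts of both Cre+ libraries were above those of both Cre- libraries for 5 of the 38 genes at 2.5 days (25.8% of all genes) and 13 at 8.5 days (19.8%), and below for 13 (22.7%) and 7 (19.2%).

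Whether the change with OSKM differed between EDL and SOL was tested by the difference of the log2 fold changes. At 2.5 days it was called for 7 genes, lower in EDL for 6 and higher for 1, beside 0.891% and 3.36% of all genes. Aldoc rose more in EDL than in SOL (3.06 ± 0.63, adjusted p = 0.0202), while Gpd1 (-1.63 ± 0.35, 0.0250), Phka1 (-1.48 ± 0.30, 0.0197), Phkb (-1.18 ± 0.23, 0.0144), Slc2a4 (-1.07 ± 0.26, 0.0378), Hk2 (-1.0 ± 0.23, 0.0347) and Pfkfb4 (-0.67 ± 0.14, 0.0210) fell more in EDL. With EDL and SOL libraries of the same number paired as a block, by edgeR, 11 genes were called lower and 1 higher, the added ones being Phkg1, Pfkfb3, Tpi1, Pfkm and Eno3. The genes called for the difference at 2.5 days changed with the library left out. Each such fit keeps a lone sample in its group, so it cannot show that a call rested on 1 library. Aldoc lost its call without any of Cre- EDL replicates 1 and 2, Cre+ EDL replicate 2, Cre+ SOL replicate 2 and Cre- SOL replicate 2, with adjusted p between 0.0662 and 0.172 by edgeR. At 8.5 days 0 genes were called by edgeR, with 14 at an unadjusted p under 0.05, and DESeq2 called 5 lower in EDL. The share of all genes at such a p was not computed for this difference, so the 14 have no background. Without Cre- EDL replicate 2, edgeR called 1 lower. Of all genes, 0.0585% were called lower and 0.533% higher by edgeR for the difference at 8.5 days.

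The falls in EDL were compared with the difference between the muscles in libraries that the EDL comparison did not use, the Cre- libraries of 5.5 days. Of the 21 genes called higher in EDL than in SOL in those libraries, 14 fell, 1 rose (Fbp2) and 6 were not called in EDL at 2.5 days, and 9 fell, 1 rose (Gpi1) and 11 were not called at 8.5 days. Among all tested genes higher in EDL by that measure, 25.4% fell and 10% rose at 2.5 days, and 19.6% fell and 6.56% rose at 8.5 days. Of the 13 genes called in neither muscle, 5 fell and 2 rose at 2.5 days, Hk2 and Slc2a4 among those that fell, beside 8.20% and 13.7% of all such genes, and 3 fell and 4 rose at 8.5 days, beside 4.94% and 7.13%. Of the 4 genes higher in SOL (Ldhb, Slc16a1, Gys1 and Gbe1), 3 fell and 0 rose at 2.5 days, beside 11.5% and 17.7% of all such genes, and 1 fell and 0 rose at 8.5 days, beside 6.45% and 12.6%. Of 8 fast fiber markers, 4 fell in EDL at 2.5 days (Myh1, Tnnt3, Tnni2 and Pvalb) and 4 were not called. At 8.5 days 2 fell (Tnnt3 and Tnni2) and 6 were not called, and 0 of 8 slow fiber markers were called at either day. The summed level of the fast fiber markers was 88750 and 97550 FPKM in Cre- and 73860 and 59040 in Cre+ EDL libraries at 2.5 days. The part of these markers in the falls was not tested.

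**Figure D4:**
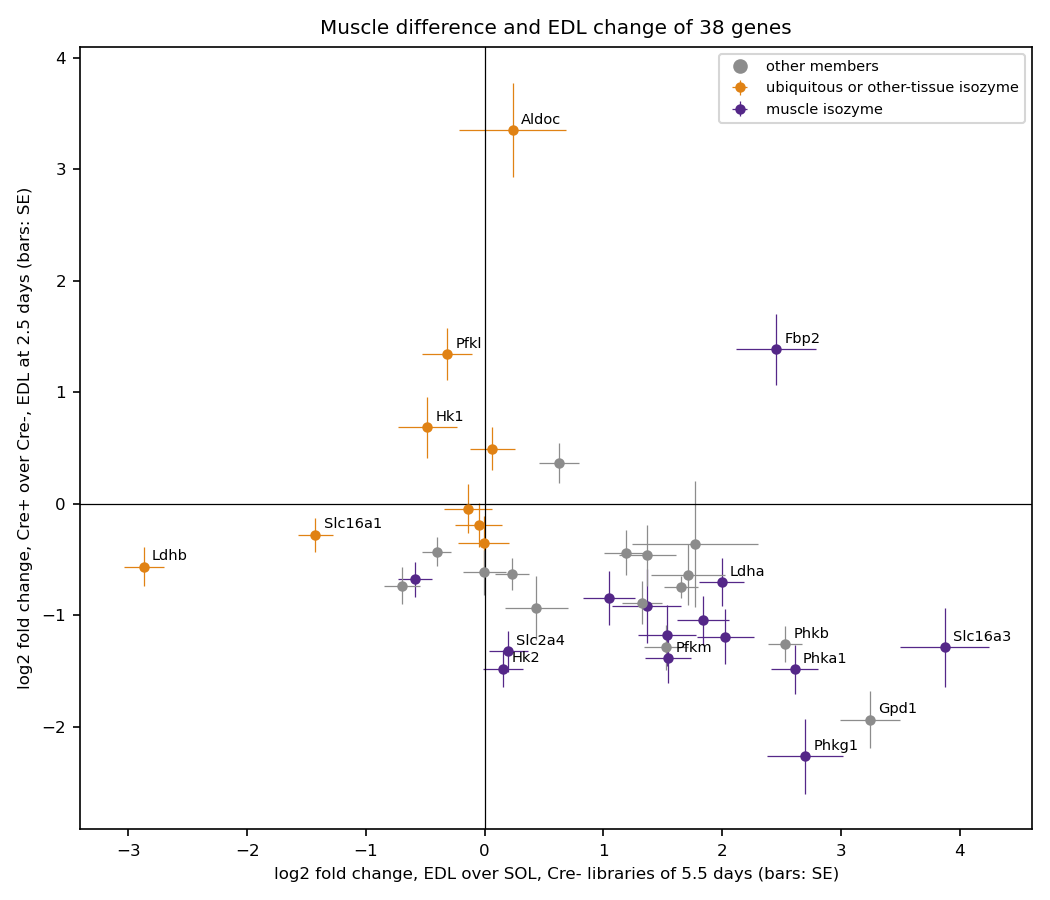
Each point is a gene, with the log2 fold change of EDL over SOL in Cre- libraries of 5.5 days on the horizontal axis and that of Cre+ over Cre- in EDL muscles at 2.5 days on the vertical axis, and bars for the SE. Genes higher in EDL lie mostly below 0 on the vertical axis, with Fbp2 as an exception at 2.45 and 1.39, and Hk2 and Slc2a4 fell with a muscle difference of 0.16 and 0.20.

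Among markers of other cells, those of endothelium were called lower at 2.5 days for 4 of 6 genes (Pecam1, Cdh5, Tie1 and Emcn) and for 0 at 8.5 days, with a summed level of 88.2 and 102.9 FPKM in Cre- and 81.6 and 79.1 in Cre+ libraries at 2.5 days. Liver transcripts were lower at 8.5 days for 5 of 6 genes in EDL, from 6.87 and 7.17 to 1.07 and 0.825 FPKM in sum, and for 6 of 6 in SOL, where they reached 20.99 and 107.4 FPKM in Cre- libraries. None of the macrophage, fibroblast, Schwann cell, satellite cell, erythroid or adipocyte markers was called in an EDL or SOL comparison of 2.5 or 8.5 days by edgeR. The part of the endothelial and liver transcripts in the changes was not tested.

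The 5.5-day samples were treated as outliers in the study and left out of its later steps. In them 0 of the 38 genes were called in EDL by edgeR, with 7 at an unadjusted p under 0.05, and 0 in SOL, with 0. The share of all genes at such a p was not computed for this day. Without Cre+ EDL replicate 1, 1 gene was called lower in EDL. Of all genes, 0.258% were called higher and 0.0452% lower in EDL, and 0.00% in either direction in SOL. The summed OSKM level was 13.1 and 109.4 FPKM in the Cre+ EDL libraries of that day and 11.5 and 11.8 in the Cre- ones. In SOL it was 8.43 and 15.4 FPKM in Cre+ libraries, not above the 16.1 and 15.7 of the Cre- ones. The lowest adjusted p among the 38 genes was that of Hk2, which was 121.5 and 97.2 FPKM in Cre- and 78.3 and 59.2 in Cre+ libraries (-0.81 ± 0.17, 0.0517).

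Of 82 further genes of sugar, pyruvate and glycogen metabolism and their regulation, 81 were in the table and 74 were tested. In EDL 8 rose and 19 fell at 2.5 days and 5 rose and 20 fell at 8.5 days, beside 13.8% of all genes called higher and 10.2% lower at 2.5 days and 7.63% and 6.50% at 8.5 days, with 0 called in SOL at 2.5 days and 2 at 8.5 days by edgeR. The largest rise at 2.5 days was that of Pgd, an enzyme of the pentose phosphate path that branches off at glucose 6-phosphate, at 8.74 and 8.53 FPKM in Cre- and 61.3 and 106.5 in Cre+ libraries (2.94 ± 0.28, adjusted p = 2.46e-05). Pygl, the liver phosphorylase (1.21 ± 0.39, 0.0358), and Pdk3, a kinase that switches off pyruvate dehydrogenase (1.13 ± 0.31, 0.0163), followed from low levels. The largest falls were those of Mlxipl, the carbohydrate-responsive factor ChREBP, at 41.2 and 38.4 against 23.3 and 15.1 FPKM (-1.37 ± 0.19, 0.000281), and of Got1 (-1.19 ± 0.17, 0.000295) and Mdh1 (-1.17 ± 0.20, 0.00110), the cytosolic enzymes of the malate-aspartate shuttle.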

How the data were processed

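PolyA-selected, stranded, single-end mRNA libraries were made from EDL and SOL muscles. The authors aligned reads to mm10 (GRCm38) with STAR 2.5.3a and used HOMER to count uniquely aligned reads in exons of RefSeq genes. The deposited file gives these raw counts, not normalized, for 24537 genes in 24 libraries. Tests used edgeR 4.0.16 (R 4.3.3, quasi-likelihood, TMM, filterByExpr with a minimum count of 10, Benjamini-Hochberg adjustment). The 16 libraries of 2.5 and 8.5 days were fitted in 8 groups (15372 genes), and all 24 libraries for 5.5 days and for EDL over SOL (15478 genes). A call is an adjusted p under 0.05 with an absolute log2 fold change over 0.5. The SE is not an edgeR output. It was derived as the absolute log2 fold change divided by the square root of the F statistic of the test. With 2 samples a group, edgeR took the spread from all groups of a fit and moderated it across genes, and its p-values rest on that shared spread. For a single gene an exact permutation of 2 against 2 cannot go below 0.333. FPKM was computed from counts, exon length and library totals. The total count per library was 36088781 to 54679082 (median 44243960), and the common biological coefficient of variation was 0.174.

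Deviations from the group means correlated between EDL and SOL libraries of the same number in all 6 groups of mice (r = 0.173 to 0.445). The number was therefore used to pair the muscles in alternative runs, while the main tests between muscles were not paired. Isozyme ratios were tested by exact permutation of libraries within days, two-sided. DESeq2 1.42.0, other scalings, filters and sample sets, and leaving out each library were tried as alternatives. The scripts were tested on simulated data. Values per library were given for isozyme pairs and called genes, and for other pathway genes the 3 rises and 3 falls of largest size in EDL at 2.5 days with a mean of at least 1 FPKM were named. The members and lists were chosen with earlier results of these data known.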

Additional observations from a re-analysis of the deposited data

Results flagged for a closer look

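The change with OSKM at 2.5 days differed between EDL and SOL muscles, by the test of the difference in edgeR, for 7 of the 38 genes. The difference in log2 fold change (EDL minus SOL) was 3.06 for Aldoc, -1.63 for Gpd1, -1.48 for Phka1, -1.18 for Phkb, -1.07 for Slc2a4, -1.0 for Hk2 and -0.67 for Pfkfb4. Of these 7, 0 kept their call when each of the 8 libraries was left out in turn. The groups hold 2 libraries each, so no library could be set against the others of its group.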

How the results depend on the processing

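No called gene changed direction under any alternative run. In EDL, 16 of 25 calls at 2.5 days held in all 10 alternatives that kept every library, and 7 of 18 at 8.5 days in all 11. Lost in some of them at 2.5 days were Pfkfb4, Gbe1, Pgam2, Ldha, Ldhd, Ugp2, Gys1, Ldhb and Pfkfb1. At 8.5 days those lost were Hk1, Gbe1, Aldoa, Pgk1, Ppp1r3c, Pfkl, Pygm, Ppp1r3a, Pgam1, Gpi1 and Hk2. Library size alone gave 6 rises and 13 falls in EDL at 2.5 days, and 2 rises in the difference between the muscles. The share of all genes called at that scaling was not computed. All 24 libraries gave 5 rises at 2.5 days. The 8 EDL libraries alone gave 1 rise and 6 falls at 8.5 days. In SOL at 2.5 days 1 gene was higher and 3 lower at an unadjusted p, DESeq2 called 2 lower, and on 4 libraries 1 higher and 4 lower. In SOL at 8.5 days 2 were higher and 1 lower at an unadjusted p, and DESeq2 on 4 libraries called 1 higher. For the difference between the muscles DESeq2 called 2 higher and 12 lower at 2.5 days and 5 lower at 8.5 days, and pairing same-numbered muscles as a replicate block 11 lower at 2.5 days. That block gave 23 genes higher and 4 lower in EDL over SOL and changed no other count by over 1.5 times. Cre+ and Cre- libraries of the same number did not deviate together (r = -0.169 to 0.0578), and with the number as a block the counts stayed at 3 and 22 at 2.5 days and 5 and 13 at 8.5 days in EDL and 0 in SOL. A crossed pairing in EDL at 8.5 days, chosen after seeing the data, gave 6 rises and 14 falls, and the 5.5-day muscle comparison and the unadjusted counts were also added then.

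When 1 library was left out, its group kept a lone sample, assumed to vary like the other groups. The calls then ranged from 2 to 4 rises and 11 to 24 falls in EDL at 2.5 days, from 0 to 5 and 2 to 11 at 8.5 days, and from 0 to 2 higher and 0 to 13 lower for the difference at 2.5 days. They ranged from 0 to 1 lower for the difference at 8.5 days, from 0 to 3 higher for the EDL change between days and from 0 to 1 lower in EDL at 5.5 days. Of the 25 calls at 2.5 days 13 held without any library, of the 18 at 8.5 days 2 (Gpd1 and Phkb), and of the 26 between the muscles 23. Lost in some of these runs at 2.5 days in EDL were Pgam2, Aldoa, Pgk1, Ldha, Pygm, Ldhd, Slc16a3, Fbp2, Ugp2, Gys1, Ldhb and Pfkfb1. Aldoa over Aldoc in EDL over SOL ranged from 0.74 to 1.31. With libraries exchanged only within same-numbered pairs of EDL and SOL, a replicate block added after seeing the data, that ratio (1.02) no longer passed the test, and the other 8 ratios kept their side of it. Ratios over all 3 days take in the 5.5-day samples, treated as outliers in the study. Their summed OSKM level was 13.1 and 109.4 FPKM in Cre+ and 11.5 and 11.8 in Cre- EDL libraries. In SOL it was 8.43 and 15.4 FPKM in Cre+ and 16.1 and 15.7 in Cre- libraries. Over all 3 days the ratios named next allow a smaller p and passed the exact permutation test at 0.05, without adjustment over the 18 tests. In EDL their mean log2 differences were -1.6 for Hk2 over Hk1, -1.5 for Pfkm over Pfkl, -0.66 for Pfkm over Pfkp, -2.75 for Aldoa over Aldoc, -0.88 for Pgam2 over Pgam1, -0.69 for Eno3 over Eno1, -0.64 for Slc2a4 over Slc2a1 and -0.65 for Slc16a3 over Slc16a1. In SOL they were -0.51 for Hk2 over Hk1, -0.24 for Pfkm over Pfkp and 0.63 for Ldha over Ldhb. Where no cause is given for a moved count, the cause was not tested. Depth limits Aldoc most, with as few as 8 counts in a SOL library.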

Other observations

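Among the further pathway genes, 6 listed genes of pyruvate entry into mitochondria are named here after their values were seen. Of these, 4 were called lower by edgeR in Cre+ than in Cre- EDL muscles at both days. Of all 74 tested further genes, 19 fell at 2.5 days and 20 at 8.5 days, beside 10.2% and 6.50% of all genes. The pyruvate carrier subunits Mpc1 (log2 fold change -0.79 at 2.5 days and -0.80 at 8.5 days) and Mpc2 (-0.85 and -0.81) fell, as did Pdhb (-0.76 and -0.80) and Dld (-0.73 and -0.92) of the pyruvate dehydrogenase complex. Dlat, of the same complex, was called at 8.5 days (-0.74) but not at 2.5 days (-0.49), and Pdha1 was called at neither (-0.36 and -0.495). Epas1, which encodes the hypoxia factor HIF-2 alpha, rose by 0.72 and 0.62, while Hif1a, which encodes HIF-1 alpha, was not called (-0.19 and -0.28).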
